A study of Mus musculus with 10 samples.

Results

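The 9 genes described here are the hepatocyte identity transcription factors Hnf4a, Foxa1, Foxa2, Foxa3, Cebpa, Cebpb, Onecut1, Nr5a2 and Prox1. They were taken by name, with earlier results of these data known, from the 21939 genes of the count table, and all 9 passed the filter on low counts. RNA was sequenced from hepatocytes freshly isolated from 10 male mice, which entered the study at 8 to 9 weeks of age, with 1 library per mouse. All mice, the control animals included, had received AAV8Cre (adeno-associated virus, serotype 8, with Cre recombinase driven by the hepatocyte-specific thyroxine-binding globulin promoter) and were killed on day 12 after it. The control group was C57BL6/j mice without floxed alleles (n = 3), and the others carried Nrf2 flox/flox (Nrf2 KO, n = 2), p65 flox/flox (p65 KO, n = 2) or both floxed genes (DKO, n = 3). The study describes the floxed lines as sharing the control background, and any difference that remains between these lines and C57BL6/j mice cannot be told apart from that of the knockout. The livers were digested with Liberase and the hepatocytes were enriched by slow centrifugation and a Percoll step, which leaves some nonparenchymal cells. The comparisons ask how the loss of Nrf2, which drives antioxidant and detoxification genes, of p65, the main activating subunit of NF-κB, or of both altered gene expression in hepatocytes. Genotype names below are those of the labels.

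Hepatocyte identity is kept by a small set of transcription factors that bind together at liver enhancers and at each other's genes. HNF4A is a nuclear receptor that drives many genes of differentiated hepatocytes, the FOXA proteins open chromatin at liver enhancers, and the C/EBP proteins are leucine zipper factors, of which C/EBPα is linked to metabolic genes and quiescence and C/EBPβ to the acute-phase response and regeneration. Onecut1 acts in liver and bile duct development, Nr5a2 activates genes of bile acid and cholesterol metabolism, and Prox1 acts in hepatoblast migration and represses bile acid synthesis in the adult liver.

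The libraries held between 33707165 and 49897382 estimated counts (median 37043490.5). Values below are normalized counts, which are the estimated counts divided by the library size after TMM scaling and brought back to the mean library size. The 2 genes meant to be deleted were looked at before the others. Nfe2l2, the gene of Nrf2, had 2318, 1991 and 1990 normalized counts in the control libraries, 4739 and 5005 in Nrf2 KO, 1993 and 1997 in p65 KO, and 4111, 3434 and 5239.5 in DKO. It was thus higher, not lower, in the libraries labelled Nrf2 KO and DKO. Rela, the gene of p65, had 1221, 1276 and 1269 normalized counts in control, 1268 and 1225 in Nrf2 KO, 1183 and 1209 in p65 KO, and 1488, 1241 and 1034 in DKO, and both p65 KO libraries lay below control (log2 fold change -0.071, adjusted p = 0.765) while the DKO libraries overlapped with it. The table gives 1 total per gene and cannot count deleted exons apart, so that these totals check neither deletion, and every direction given for a knockout rests on the labels. The study also assessed the deletions by RT-qPCR and Western blot, which were not analysed here. Of 15 hepatocyte markers, 14 were in the table and tested, and their summed level lay between 4047992 and 6346973 normalized counts in all 10 libraries.

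Markers of nonparenchymal cells were low beside these but differed between the genotypes. The summed level of 12 Kupffer cell markers was 375 to 951 normalized counts in control, 263 to 816 in Nrf2 KO, 4518 to 6236 in p65 KO and 1706 to 2935 in DKO. For 12 sinusoidal endothelial markers the sums were 1037 to 2212, 1338 to 2607, 5539 to 7683 and 2814 to 4253, and for 12 stellate cell markers 304 to 554, 245 to 484, 2846 to 3038 and 536 to 1449 in the same order. All 12 Kupffer, all 12 endothelial and 9 stellate markers were higher in p65 KO than control at an adjusted p of at most 0.05. The largest changes are named only among called markers that averaged 50 or more normalized counts over the libraries. For Kupffer cells these were Marco (log2 fold change 3.62), Cd163 (3.42) and Cd5l (3.32). For endothelial cells they were Lyve1 (2.66), Dnase1l3 (2.33) and Gpr182 (2.19), and for stellate cells Dcn (3.63), Colec11 (3.16) and Ecm1 (2.94). In DKO edgeR called 6, 2 and 1 markers of these 3 lists higher than in control, and DESeq2 called 9, 7 and 3. An unadjusted p under 0.05 in edgeR was found for 12, 9 and 7, and 12, 12 and 11 of the log2 fold changes were positive. Among all genes tested edgeR called 8.13% higher in p65 KO and 2.61% higher in DKO. Of 14 markers of other immune cells 11 were tested, and 3 were higher in p65 KO, with Ly6g at 0 in every library. Among 11 cholangiocyte markers 7 were tested and edgeR called 0 in each comparison with control (p65 KO, DKO, Nrf2 KO), with 1, 2 and 3 at an unadjusted p under 0.05 and 0, 1 and 1 called by DESeq2. Krt19, Krt7, Cftr and Tspan8 had fewer than 10 counts over all 10 libraries. Of 7 erythroid markers 5 were tested, and edgeR called 0 in each of the comparisons with control, with 3 at an unadjusted p under 0.05 in DKO and 0 in the other comparisons, while DESeq2 called 3, all in DKO. What part these cells had in the values of the transcription factors was not tested, and the values that bear on single genes stand beside them.

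All 9 genes are protein-coding, and positions come from GENCODE M39 on GRCm39. Foxa3 and Cebpa lie on chromosome 7, at chr7:18747209-18757471 (minus strand) and chr7:34818718-34821353 (plus strand). Hnf4a (chr2:163348728-163414830, plus), Cebpb (chr2:167530835-167532338, plus) and Foxa2 (chr2:147884797-147889005, minus) share chromosome 2, while Prox1 (chr1:189850232-189904637, minus) and Nr5a2 (chr1:136770303-136888186, minus) share chromosome 1. Foxa1 lies at chr12:57587414-57593702 (minus) and Onecut1 at chr9:74769118-74800594 (plus). Cebpa and Cebpb consist of 1 exon, the FOXA genes and Onecut1 of 2 exons, and Hnf4a of 10 exons in the canonical transcript.

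The 300 bases before the canonical transcript start were read for 11 short motifs on both strands, in these genes and in 13630 promoters of tested genes. The letters were CACGTG (E-box, in 8.40% of the promoters), GGANTTTCC (NF-κB, 1.48%), TGACNNNGC (antioxidant response element core, 12.2%), TTGCNNAA (C/EBP, 10.2%), CAAAGTCCA (HNF4, 0.477%), TGTTTNC (FOXA, 18.3%), ATCAAT (Onecut, 6.01%), TTATGNAA (D-box, 2.91%), CCAAT (40.2%), TATAAA (9.66%) and GGGCGG (GC box, 48.7%). None of the 9 windows held the NF-κB letters or the antioxidant core, none held the C/EBP, HNF4 or D-box letters, and this says only that these letters are not in these windows. All 300 bases of the Nr5a2 window lie inside annotated exons, as do 94 bases of the Hnf4a window and 97 of the Cebpa window. Windows are shown for Foxa3, Cebpa and Prox1, which rose most in p65 KO, and for Foxa2 and Onecut1, which with Foxa1 varied most within genotypes and of which Foxa2 held the Onecut letters. They are written 5′ to 3′ on the strand of the gene, as the longest stretch outside annotated exons. Capitals mark a motif match on either strand.
Foxa3 (GRCm39, chr7:18757472-18757771, minus strand): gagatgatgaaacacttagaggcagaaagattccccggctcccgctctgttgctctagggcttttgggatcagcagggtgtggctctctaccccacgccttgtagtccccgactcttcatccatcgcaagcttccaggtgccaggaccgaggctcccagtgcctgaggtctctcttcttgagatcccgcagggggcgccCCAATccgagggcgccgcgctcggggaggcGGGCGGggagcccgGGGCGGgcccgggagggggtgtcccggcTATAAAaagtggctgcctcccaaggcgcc
Cebpa (GRCm39, chr7:34818428-34818576, plus strand): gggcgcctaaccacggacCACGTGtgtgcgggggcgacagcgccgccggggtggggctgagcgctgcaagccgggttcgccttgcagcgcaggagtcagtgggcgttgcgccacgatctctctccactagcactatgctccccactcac
Prox1 (GRCm39, chr1:189903209-189903508, minus strand): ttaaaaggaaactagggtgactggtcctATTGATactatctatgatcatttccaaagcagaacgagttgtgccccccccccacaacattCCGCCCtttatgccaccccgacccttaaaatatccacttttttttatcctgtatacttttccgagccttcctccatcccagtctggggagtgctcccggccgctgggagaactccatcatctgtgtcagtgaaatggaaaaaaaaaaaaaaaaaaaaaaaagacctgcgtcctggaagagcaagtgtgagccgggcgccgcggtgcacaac
Foxa2 (GRCm39, chr2:147889006-147889305, minus strand): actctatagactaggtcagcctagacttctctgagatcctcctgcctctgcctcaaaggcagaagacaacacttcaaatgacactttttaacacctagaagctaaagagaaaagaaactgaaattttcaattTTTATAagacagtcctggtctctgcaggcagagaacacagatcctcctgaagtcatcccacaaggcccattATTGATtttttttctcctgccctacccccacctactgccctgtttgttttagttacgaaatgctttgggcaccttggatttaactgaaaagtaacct
Onecut1 (GRCm39, chr9:74768818-74769117, plus strand): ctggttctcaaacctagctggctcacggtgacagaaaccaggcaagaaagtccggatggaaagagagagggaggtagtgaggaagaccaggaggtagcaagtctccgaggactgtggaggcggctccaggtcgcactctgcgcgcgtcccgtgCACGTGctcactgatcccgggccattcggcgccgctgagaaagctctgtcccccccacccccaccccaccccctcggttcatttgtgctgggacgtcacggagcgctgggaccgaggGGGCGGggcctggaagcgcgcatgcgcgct
In Foxa3 the capitals are a CCAAT, 2 GC boxes and a TATAAA close to the start. In Cebpa they are the E-box, the site type bound by the clock and Myc families, 282 to 277 bases before the start. A TATAAA stands 40 to 35 bases before the start of Cebpa, in the bases not shown. Prox1 held the Onecut letters 272 to 267 bases before the start and a GC box, both on the opposite strand. Foxa2 held the Onecut letters 97 to 92 bases before the start and the TATAAA letters, both on the opposite strand. Onecut1 held the E-box 147 to 142 bases before the start and a GC box. The FOXA letters stood in 1 of the 9 windows, that of Foxa1, 94 to 88 bases before the start.

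Levels between genes were compared per kilobase of the canonical transcript, in the control libraries. Hnf4a was the most abundant, with 4736 ± 333 normalized counts per kilobase (SD, n = 3), followed by Cebpa with 3447 ± 263 and Foxa3 with 1077 ± 21.5. Cebpb followed with 628 ± 74.3, Nr5a2 with 363 ± 18.1 and Prox1 with 308 ± 46.1. Foxa2 (251 ± 113), Onecut1 (239 ± 186) and Foxa1 (222 ± 119) were lowest. The libraries of Hnf4a, Cebpa, Foxa3 and Cebpb did not overlap with those of the next gene in this order, whereas the last 5 genes overlapped with their neighbours. When the length of all exons joined was used, the order of the first 4 genes stayed and Nr5a2 moved from place 5 to place 8. The 9 levels thus ranged over 21.3-fold, with Foxa3 the highest of the FOXA genes in all 10 libraries.

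**Figure D1:**
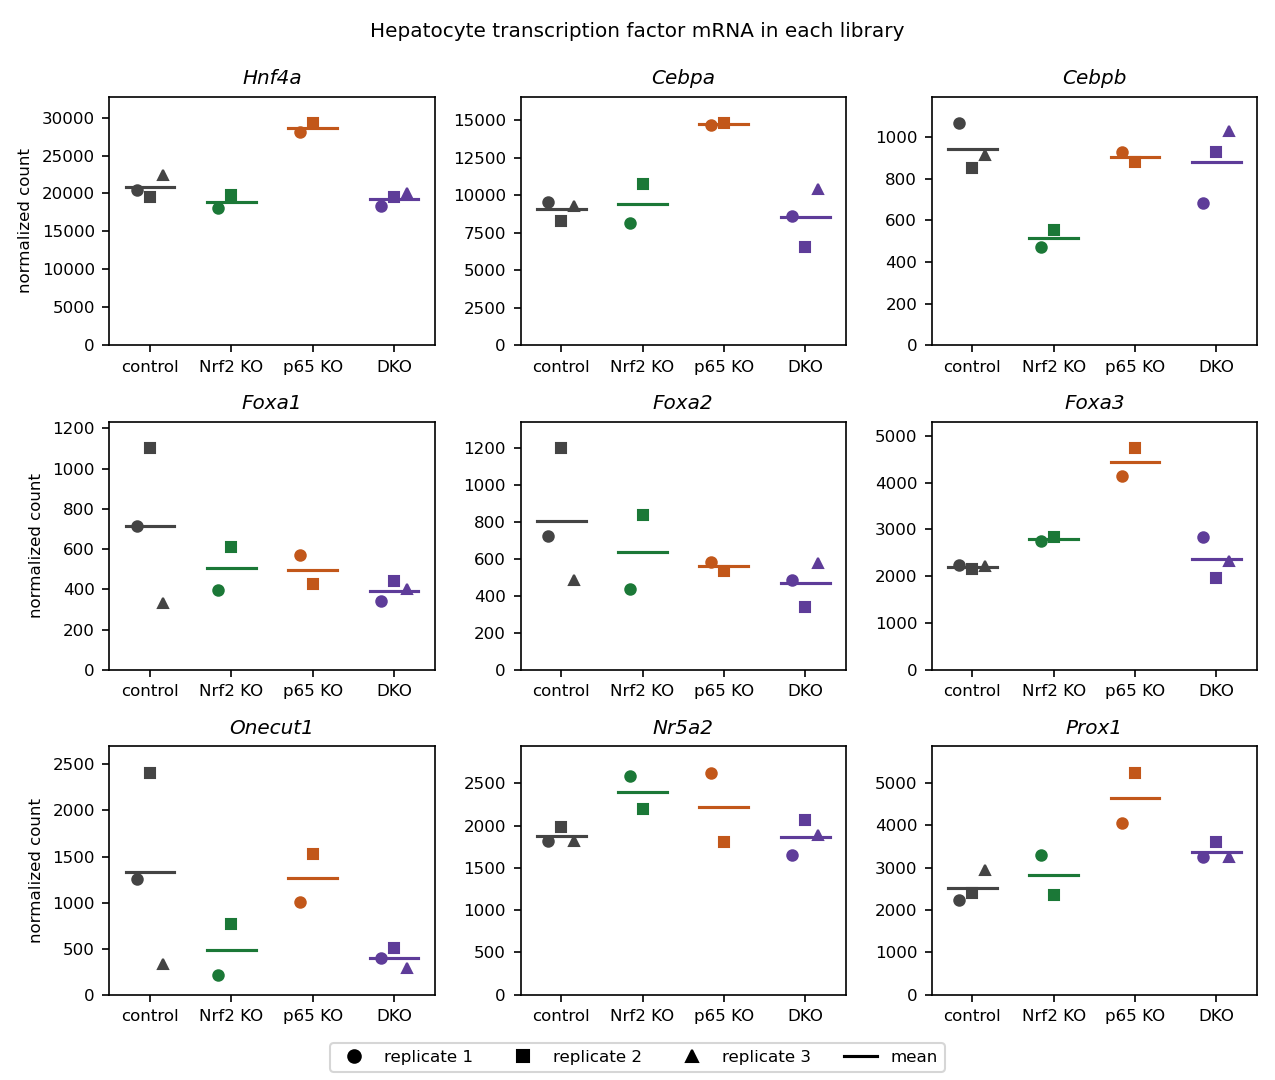
Normalized counts (vertical axes, from 0) of the 9 transcription factors in each of the 10 libraries, grouped by genotype on the horizontal axes, with symbols for replicate numbers and lines for means. Hnf4a, Cebpa, Foxa3 and Prox1 are higher in both p65 KO libraries than in every control library, Cebpb is lower in both Nrf2 KO libraries, and Onecut1, Foxa1 and Foxa2 are widely scattered in control.

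Loss of p65 was accompanied by higher mRNA of 4 of the 9 factors, Foxa3, Prox1, Cebpa and Hnf4a, while 0 were lower, in edgeR's quasi-likelihood test with Benjamini-Hochberg adjustment over the 13641 genes tested. Among all genes tested 14.9% were called in this comparison and 8.13% were called higher. The same 4 genes were those with both p65 KO libraries above all control libraries, which held for 26.2% of all genes. The median log2 fold change was 0.24 over the 9 genes and 0.00090 over all genes tested. In p65 KO against control, scaling to equal totals in place of TMM raised the median of all genes by 0.18 on the log2 scale and changed the called genes from 1109 higher and 923 lower to 1632 higher and 355 lower, while the 4 factors were called with either scaling. For each gene, the p-values rest on a spread between mice estimated over the 4 genotypes together, and p65 KO has 2 mice.

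Foxa3, the FOXA gene with the highest level here, had 2236, 2153 and 2218 normalized counts in control and 4136 and 4736 in p65 KO. Both p65 KO libraries lay far above the narrow range of the controls. The log2 fold change was 1.01 (standard error, SE, 0.140, adjusted p = 0.00221), or 2.01-fold, and Foxa3 was the only of the 9 genes past a log2 fold change of 1 as well, as were 6.59% of all genes in either direction. It was called in p65 KO without any 1 of the 10 libraries, with adjusted p between 0.00108 and 0.0185.

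Prox1, which is also a master factor of lymphatic endothelium, had 2226, 2407 and 2954 normalized counts in control and 4049 and 5240 in p65 KO. The groups did not overlap, and the log2 fold change was 0.88 (SE 0.173, adjusted p = 0.00993). Without p65 KO replicate 2, which was the higher of the pair, it was 0.68 (adjusted p = 0.0654). Of 6 lymphatic endothelial markers 3 were tested and all 3 were higher in p65 KO, namely Lyve1 (2.66), Flt4 (2.07) and Reln (1.92), of which Lyve1 also marks sinusoidal endothelium and Reln stellate cells. Their summed level was 126 to 353 normalized counts in control and 797 to 1086 in p65 KO, while Ccl21a was at 0 in every library and Pdpn and Mmrn1 had fewer than 10 counts in all, and the part of such cells in the Prox1 value was not tested.

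Cebpa had 9581, 8272 and 9306 normalized counts in control and 14724 and 14805 in p65 KO, where the libraries were nearly equal. The log2 fold change was 0.71 (SE 0.182, adjusted p = 0.0277). This call did not hold without any 1 of the control or p65 KO libraries, where the adjusted p lay between 0.0595 (without control replicate 3) and 0.131 (without p65 KO replicate 1) while the log2 fold change stayed between 0.64 and 0.75.

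Hnf4a had 20459, 19599 and 22455 normalized counts in control and 28132 and 29252 in p65 KO, again without overlap. Its log2 fold change of 0.46 (SE 0.112, adjusted p = 0.0222) was the smallest of the 4, and its spread within genotypes was also the smallest, with an SD of 0.080 on the log2 scale against a median of 0.18 over the 10161 genes compared. Without control replicate 1, control replicate 2, p65 KO replicate 1 or p65 KO replicate 2 the adjusted p was 0.0669, 0.0606, 0.0967 and 0.0875. In bulk RNA a change in the share of hepatocytes and a change of RNA per hepatocyte cannot be told apart. The p65 KO library with the lower Kupffer marker sum, replicate 2, had the higher value of Foxa3, Prox1 and Hnf4a. Cebpa was nearly equal in both libraries. Replicate 2 also had the lower hepatocyte marker sum (4399272 against 4640350 normalized counts). The part of the cell mixture in these values was not tested.

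The other 5 factors were not called in p65 KO. Cebpb had 931 and 884 normalized counts in p65 KO, inside the control range of 851 to 1068, with a log2 fold change of -0.06 (95% interval -0.43 to 0.32) that was 0.12 with scaling to equal totals. Onecut1 had 1004 and 1527 in p65 KO and 1260, 2407 and 334 in control (log2 fold change -0.07, 95% interval -1.52 to 1.37), and this value was 0.07 with scaling to equal totals. Foxa1 (log2 fold change -0.53), Foxa2 (-0.52) and Nr5a2 (0.24) had intervals that held 0. Without control replicate 2 the values were -0.074 for Foxa1, -0.11 for Foxa2 and 0.67 for Onecut1, and without control replicate 3 they were -0.87, -0.78 and -0.54. For Onecut1, Foxa1 and Foxa2 the intervals were wide enough to hold a change of 2-fold lower.

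In Nrf2 KO, edgeR called 0 of the 9 factors, where 0.726% of all genes were called, and 3 factors (Cebpb, Foxa3 and Nr5a2) had an unadjusted p under 0.05 while DESeq2 called 1, Cebpb. Cebpb had 1068, 851 and 913 normalized counts in control and 474 and 554 in Nrf2 KO, so that both Nrf2 KO libraries lay below every control library, as for 13.6% of all genes. The log2 fold change was -0.88 (SE 0.176), with an adjusted p of 0.0566 in edgeR, and of 0.000858 with a log2 fold change of -0.89 in DESeq2. Without a filter on low counts the adjusted p in edgeR was 0.0273, with only the 2 genotypes compared in the fit 0.0376, and without DKO replicate 1 or DKO replicate 3 it was 0.0227 and 0.0444. It was the lowest Cebpb level of the 4 genotypes, and Cebpb was also below all DKO libraries (686, 929 and 1030) in both Nrf2 KO libraries.

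Foxa3 had 2749 and 2848 normalized counts in Nrf2 KO, both above the control libraries, with a log2 fold change of 0.35 (SE 0.141, adjusted p = 0.465). Nr5a2, the nuclear receptor of bile acid genes, had 1823, 1980 and 1816 in control and 2588 and 2195 in Nrf2 KO, also without overlap (log2 fold change 0.35, SE 0.159, adjusted p = 0.528). All libraries above control were found for 14.8% of all genes. Hnf4a (-0.14, 95% interval -0.39 to 0.11) and Cebpa (0.06, 95% interval -0.34 to 0.47) overlapped with control. Prox1 (0.16), Foxa1 (-0.50), Foxa2 (-0.33) and Onecut1 (-1.44, 95% interval -2.97 to 0.09) overlapped too. Without control replicate 2 the value was -0.051 for Foxa1, 0.077 for Foxa2 and -0.69 for Onecut1, while it was -0.85 for Foxa1 without control replicate 3 and, without Nrf2 KO replicate 2, -0.87 for Foxa2 and -2.66 for Onecut1.

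**Figure D2:**
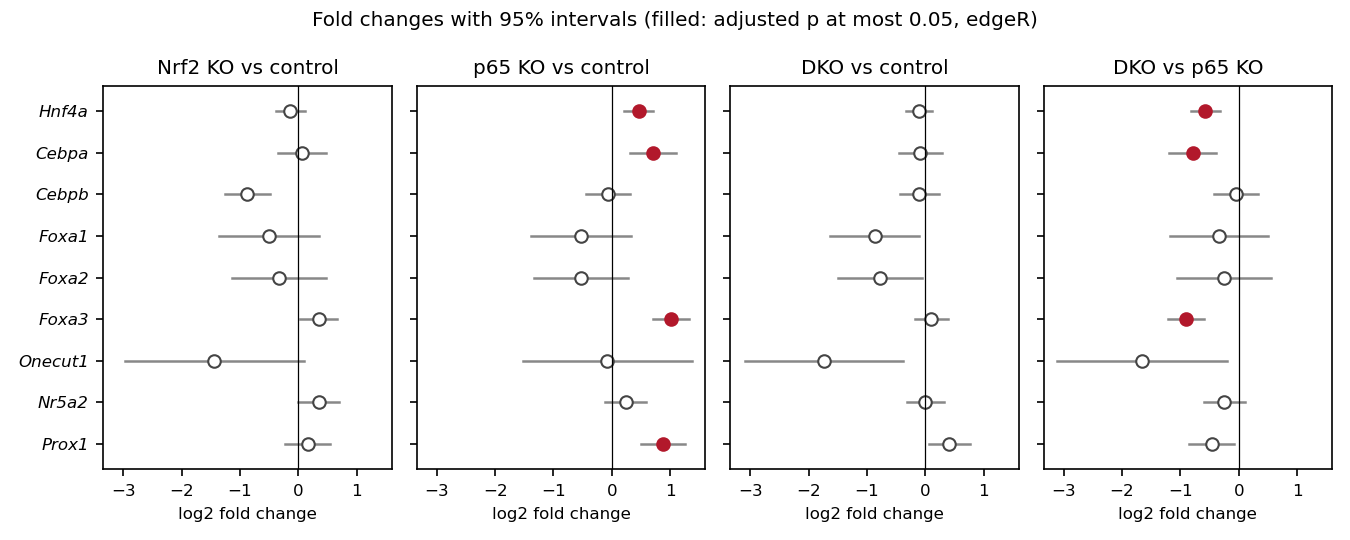
Log2 fold changes (horizontal axes) of the 9 factors in Nrf2 KO, p65 KO and DKO against control and in DKO against p65 KO, as points with 95% intervals, filled where the adjusted p was at most 0.05. Foxa3, Prox1, Cebpa and Hnf4a are filled in p65 KO against control, Foxa3, Cebpa and Hnf4a are filled on the negative side in DKO against p65 KO, and the intervals of Onecut1 are the widest in each panel.

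In DKO, edgeR and DESeq2 each called 0 of the 9 factors against control, where edgeR called 5.45% of all genes, and 4 factors (Onecut1, Foxa1, Foxa2 and Prox1) had an unadjusted p under 0.05. Hnf4a had 18410, 19479 and 20048 normalized counts in DKO (log2 fold change -0.11, 95% interval -0.33 to 0.11), which reached into the control range. Cebpa had 8649, 6580 and 10428 (-0.08, 95% interval -0.45 to 0.28) and Foxa3 had 2831, 1958 and 2321 (0.11, 95% interval -0.18 to 0.39), so that the upper bounds of these intervals lay below the 0.46, 0.71 and 1.01 seen in p65 KO. Prox1 had 3251, 3603 and 3249 and was the only factor with all DKO libraries above control, as for 13.2% of all genes (log2 fold change 0.41, SE 0.157, adjusted p = 0.154). Cebpb (-0.10) and Nr5a2 (-0.0029, with a sign that differed between scalings) had DKO libraries on either side of the control median. The DKO libraries had Kupffer marker sums above all control libraries and below both p65 KO libraries.

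Set directly against p65 KO, the 3 factors Foxa3, Cebpa and Hnf4a were lower in DKO, while 4.11% of all genes were called in this comparison and 2.06% were called lower. All 9 log2 fold changes were negative, with a median of -0.46 against 0.00030 over all genes, and 5 of the 9, the called 3 with Onecut1 and Prox1, had all DKO libraries below both p65 KO libraries, as for 20.1% of all genes. This comparison and that of p65 KO with control share the 2 p65 KO libraries. Foxa3 had a log2 fold change of -0.90 (SE 0.140, adjusted p = 0.00936), Cebpa of -0.79 (SE 0.182, adjusted p = 0.0395) and Hnf4a of -0.57 (SE 0.112, adjusted p = 0.0233). For Prox1 it was -0.46 (adjusted p = 0.151) and for Onecut1 -1.66 (adjusted p = 0.172). Scaling to equal totals moved the median of all genes by -0.27 here, and the called genes went from 280 higher and 281 lower to 135 higher and 1618 lower, and 4 factors were called, Prox1 with them.

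The calls of DKO against p65 KO rested on few libraries. With only these 2 genotypes in the fit the adjusted p was 0.0626 for Foxa3, 0.106 for Cebpa and 0.0958 for Hnf4a, and Onecut1 was called in their place (0.0441). Without p65 KO replicate 2 it was 0.0756 for Foxa3, 0.143 for Cebpa and 0.114 for Hnf4a, and 0 factors were called. Without p65 KO replicate 1 or DKO replicate 1, only Foxa3 was called, with Hnf4a at 0.0924 and 0.0771 and Cebpa at 0.151 and 0.104. For Cebpa the adjusted p was also over 0.05 without control replicate 1 (0.0551), control replicate 2 (0.0556), control replicate 3 (0.0570) or DKO replicate 2 (0.0540).

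The interaction, the difference of DKO from p65 KO minus that of Nrf2 KO from control, asks whether the loss of Nrf2 had another effect without p65. It was called for 1 of the 9 factors, Foxa3, where 0.469% of all genes were called. Its log2 fold change was 0.35 in Nrf2 KO against control and -0.90 in DKO against p65 KO, and the interaction was -1.25 (SE 0.199, adjusted p = 0.0294). Of the 9 factors 6 had an unadjusted p under 0.05 for the interaction, in both directions, with Cebpb at 0.83 (adjusted p = 0.189) and Cebpa at -0.85 (0.200), Prox1 at -0.62 (0.307), Nr5a2 at -0.60 (0.284) and Hnf4a at -0.43 (0.274). The Foxa3 call was lost without any 1 of control replicates 1, 2 and 3 (adjusted p 0.0739, 0.0774 and 0.0605), Nrf2 KO replicates 1 and 2 (0.0596 and 0.129) or p65 KO replicates 1 and 2 (0.106 and 0.101), while the value stayed between -1.39 and -1.13.

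Between DKO and Nrf2 KO, edgeR called 0 of the 9 factors, where it called 0.513% of all genes, with 2 at an unadjusted p under 0.05 (Cebpb and Nr5a2) and 1 called by DESeq2, Cebpb. Cebpb was the only factor with all DKO libraries above Nrf2 KO, as for 15.8% of all genes, with a log2 fold change of 0.78 (SE 0.176, adjusted p = 0.0959 in edgeR and 0.00527 in DESeq2). Without DKO replicate 1, the lowest of the DKO libraries, it was 0.94 (adjusted p = 0.0294). Nr5a2 had all DKO libraries (1653, 2065 and 1891) below both Nrf2 KO libraries, as for 16.4% of all genes, with a log2 fold change of -0.36 (adjusted p = 0.341).

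Asked across the 4 genotypes at once, 5 of the 9 factors varied, where 13.9% of all genes were called. They were Foxa3 (adjusted p = 0.00461), Hnf4a (0.0191), Prox1 (0.0277), Cebpb (0.0290) and Cebpa (0.0424). Foxa3, Hnf4a, Prox1 and Cebpa had their highest mean in p65 KO, and Cebpb had its lowest in Nrf2 KO. Without p65 KO replicate 1 or p65 KO replicate 2, only Foxa3 was called. Without control replicate 1, 2 were called (Hnf4a and Foxa3), and without control replicate 2 or Nrf2 KO replicate 1, 3 were.

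The C/EBP genes were also compared with each other inside each library, where the scaling cancels, since both proteins bind the same motif. Cebpb counts were 11.1, 10.3 and 9.82% of Cebpa counts in control, 5.83 and 5.15% in Nrf2 KO, 6.32 and 5.97% in p65 KO, and 7.93, 14.1 and 9.88% in DKO. Both single knockouts lay below all control libraries, and DKO lay on either side of them. Against control, the differences in mean log2 ratio were -0.93 (Nrf2 KO), -0.76 (p65 KO) and -0.0082 (DKO), with exact two-sided permutation p of 0.1, 0.1 and 1, where 0.1 is the smallest that these group sizes allow. In Nrf2 KO the lower ratio went with the lower Cebpb counts, and in p65 KO with the higher Cebpa counts. In DKO the highest ratio, in replicate 2, was that of the library with the lowest Cebpa count.

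**Figure D3:**
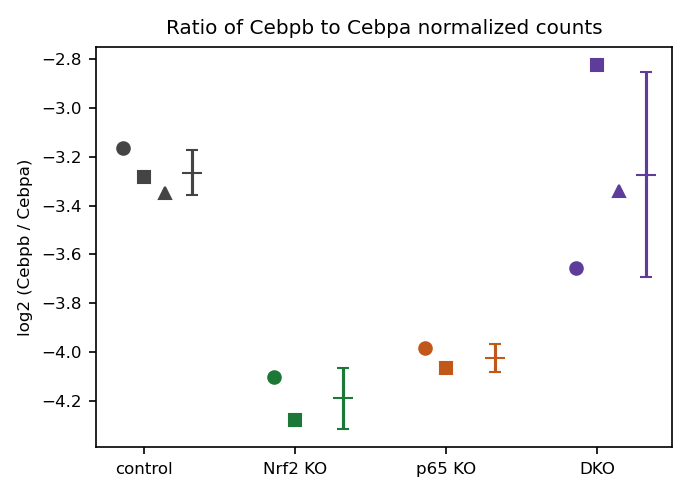
Log2 ratio of Cebpb to Cebpa normalized counts (vertical axis) in each library of the 4 genotypes, with mean and SD at the right of each group. The Nrf2 KO libraries (5.83 and 5.15%) and the p65 KO libraries (6.32 and 5.97%) lie below the 3 control libraries, and the DKO libraries spread from 7.93 to 14.1%.

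Onecut1, Foxa1 and Foxa2 had the largest spread between mice of 1 genotype among the 9 factors. Of their sum of squares on the log2 scale 46.0%, 28.7% and 32.6% lay between genotypes, beside 48.0% for Nr5a2, whose SD over all 10 libraries was 0.22, and 92.8% for Hnf4a. Across the 4 genotypes their adjusted p was 0.144, 0.293 and 0.325. Onecut1 had 1260, 2407 and 334 normalized counts in control, 212 and 767 in Nrf2 KO, 1004 and 1527 in p65 KO, and 399, 511 and 292 in DKO, an 11.4-fold range. Its SD within genotypes was 1.04 on the log2 scale, larger than that of 99.4% of the 10161 genes compared. Foxa1 had 717, 1101 and 333 in control, 398 and 612 in Nrf2 KO, 570 and 426 in p65 KO, and 341, 441 and 400 in DKO. Foxa2 had 726, 1199 and 488 in control, 439 and 837 in Nrf2 KO, 585 and 534 in p65 KO, and 488, 342 and 580 in DKO. Their SDs were 0.56 and 0.51, above those of 95.3% and 94.1% of the genes. Replicate 2 was the highest control library for each of these 3 genes and replicate 3 the lowest, and replicate 2 was the higher Nrf2 KO library for each. In p65 KO and DKO they did not keep a common order, so that Onecut1 and Foxa1 stood in the same order in 6 of the 8 pairs of libraries within a genotype, Foxa1 and Foxa2 in 6, and Onecut1 and Foxa2 in 4. Such counts were as high for other factors, with Foxa1 and Nr5a2 and also Foxa3 and Cebpa in the same order in 7.

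**Figure D4:**
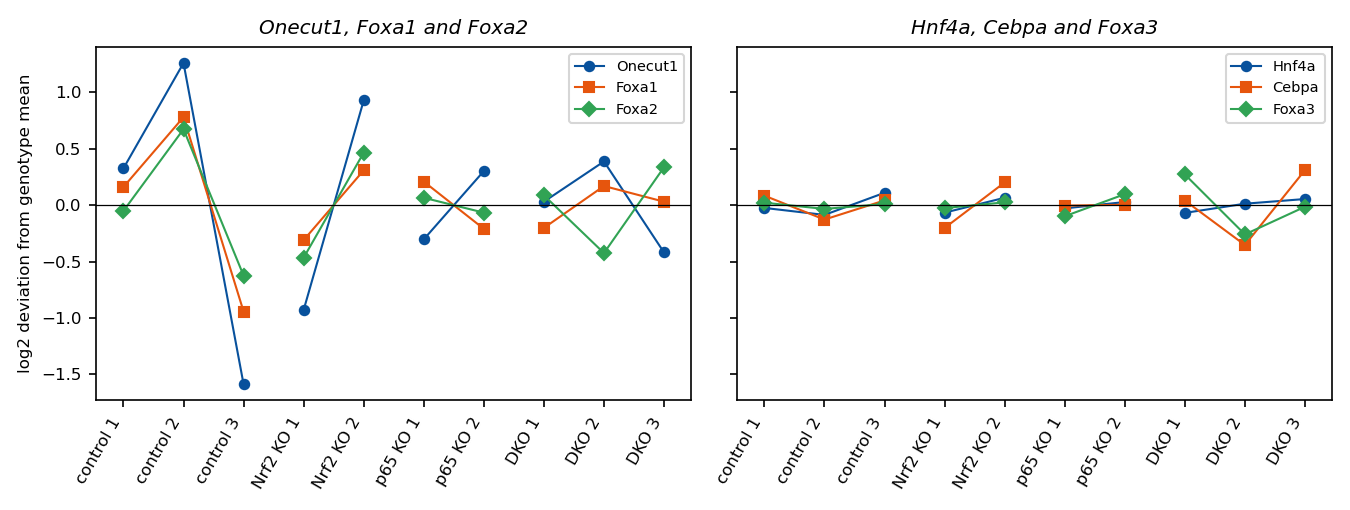
Log2 deviation of each library from the mean of its genotype (vertical axes) for Onecut1, Foxa1 and Foxa2 (left) and for Hnf4a, Cebpa and Foxa3 (right), with lines joining libraries of 1 genotype. In control, the 3 genes on the left are highest in replicate 2 and lowest in replicate 3, while Hnf4a on the right has an SD within genotypes of 0.080.

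Against control, DKO had log2 fold changes of -1.74 for Onecut1 (adjusted p = 0.127), -0.86 for Foxa1 (0.171) and -0.77 for Foxa2 (0.192), and the DKO libraries overlapped with control, where replicate 3 was low. Without control replicate 3 they were -2.19 for Onecut1 (adjusted p = 0.0332), -1.20 for Foxa1 (0.0256) and -1.03 for Foxa2 (0.0927), so that 2 of the factors were called. Without control replicate 2 they were -0.99 for Onecut1 (adjusted p = 0.364), -0.41 for Foxa1 and -0.37 for Foxa2. Of the 31-base words of the Onecut1 transcript, 39.0% also occur in another annotated gene, 38.6% in Gm20649, a noncoding gene that overlaps it on the same strand and is not among the genes tested, and how the counting divided reads between these was not tested. For the other 8 factors this share was at most 2.42% (Nr5a2), and Foxa1 and Foxa2 share 0.25% of their words. Cebpb overlaps Peds1 on the opposite strand, and the counting was set to use strand.

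Genes whose pattern over the 10 libraries was closest to that of a factor were found among 10160 others by the root mean square difference of centred log2 normalized counts. Closest to Hnf4a were Ipo5 (0.076), Ces2g (0.092) and Wdr77 (0.093), beside an SD of Hnf4a itself of 0.24 over the libraries. Ipo5, a nuclear import receptor, had 1251, 1394 and 1382 normalized counts in control, 1259 and 1401 in Nrf2 KO, 1780 and 2026 in p65 KO, and 1221, 1274 and 1330 in DKO. Closest to Cebpa were Pgm3 (0.13), Edc3 (0.14) and Cdc25a (0.15), and closest to Foxa3 were Rbm3 (0.18), Xkr8 (0.18) and Znfx1 (0.19). Prox1 was closest to Baz1b (0.13), Xpo4 and Tmem186, and Cebpb to Ptp4a3 (0.19), H2ax (0.21) and Degs1 (0.22). For the 2 genes of the forkhead family that varied within genotypes, Foxa1 ranked Foxa2 in place 3 (0.28) and Foxa2 ranked Gata4, another factor of liver endoderm, in place 1 (0.22) and Foxa1 in place 4. These Foxa1 and Foxa2 neighbours were looked up after their values had been seen.

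Among 31 other hepatocyte transcription factors, all in the table and tested, p65 KO altered 6 (3 higher and 3 lower), DKO 2 (both lower) and Nrf2 KO 1 (lower), with medians of 0.22, -0.088 and -0.063 on the log2 scale. These are 19.4%, 6.45% and 3.23% of the list, beside 14.9%, 5.45% and 0.726% of all genes, and DESeq2 called 8, 4 and 1. In p65 KO Ppara, the nuclear receptor of fatty acid oxidation, was higher (log2 fold change 0.88, adjusted p = 0.0393). Nr0b2, the corepressor that bile acids induce, had 2205, 1352 and 1805 normalized counts in control and 905 and 693 in p65 KO (-1.16, adjusted p = 0.0266). Nr2f6, an orphan nuclear receptor, had 1917, 1652 and 1490 in control and 816 and 880 in p65 KO (-0.99, adjusted p = 0.00173). Nr1i3, the xenobiotic receptor CAR, fell in both Nrf2-deficient genotypes, from 4301, 4522 and 4679 normalized counts in control to 1966 and 1892 in Nrf2 KO (-1.22, adjusted p = 0.0172) and to 1329, 1384 and 2148 in DKO (-1.47, adjusted p = 0.00133), while both p65 KO libraries (6446 and 5794) lay above control (0.44, adjusted p = 0.117). Gata4 fell in DKO (-1.02, adjusted p = 0.0298), with 574, 758 and 430 in control and 313, 204 and 348 in DKO. It had 345 and 362 in p65 KO, also below every control library, and 346 and 437 in Nrf2 KO.

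Textbook target genes of the factors moved in both directions. Of 28 HNF4A target genes, p65 KO altered 6 (2 higher and 4 lower), DKO 7 (5 higher and 2 lower) and Nrf2 KO 1 (lower, Nr1i3), and their median in p65 KO was -0.14 on the log2 scale. These are 21.4%, 25% and 3.57% of the list, beside 14.9%, 5.45% and 0.726% of all genes, and DESeq2 called 10, 10 and 4. Of 18 FOXA target genes 16 were tested, with Gcg and Cdx2 at 0 in every library, and p65 KO altered 5 (3 higher), DKO 5 (4 higher) and Nrf2 KO 1 (Abcc3, lower), where DESeq2 called 5, 6 and 3. Of 21 C/EBP target genes 4 were called in p65 KO (3 higher) and 7 in DKO (6 higher), with 5 and 8 by DESeq2, while in Nrf2 KO edgeR called 0, with 4 at an unadjusted p under 0.05 and 2 called by DESeq2. Of 17 target genes of Onecut1, Nr5a2 and Prox1, 16 were tested, 5 were called in p65 KO (2 higher and 3 lower) and 3 in DKO (1 higher and 2 lower), with 6 in each by DESeq2, and in Nrf2 KO edgeR called 0, with 8 at an unadjusted p under 0.05 and 2 called by DESeq2. The lists share genes.

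Cyp7a1, the rate-limiting enzyme of bile acid synthesis and a target of HNF4A, Nr5a2 and Prox1, had 539, 1236 and 704 normalized counts in control, 2550 and 1799 in Nrf2 KO, 3882 and 10954 in p65 KO, and 4044, 3393 and 15217 in DKO. Every knockout library lay above every control library, and the log2 fold change was 3.17 in p65 KO (adjusted p = 0.0110) and 3.19 in DKO (adjusted p = 0.0163). G6pc1, the last enzyme of glucose output, fell by 1.61 on the log2 scale in p65 KO (adjusted p = 0.0316), and Igfbp1 fell by 2.32 (adjusted p = 0.0300). Control libraries spread widely for both. G6pc1 had 38693, 19935 and 11361 normalized counts in control and 7968 and 7281 in p65 KO. Igfbp1 had 17755, 10527 and 5209 in control and 3414 and 1044 in p65 KO. In p65 KO Slc2a2, the hepatocyte glucose transporter, rose 2.14-fold (adjusted p = 0.00471). Gys2, liver glycogen synthase, rose 2.29-fold (adjusted p = 0.0113) and Glul, the pericentral glutamine synthetase, 2.54-fold (adjusted p = 0.00174). In DKO Tat rose by 1.62 (adjusted p = 0.00766) and Saa2, an acute-phase gene with a near copy that makes its counts uncertain, by 1.90 (adjusted p = 0.0437), and Abcc3 fell by 4.45 (adjusted p = 0.00304). In Nrf2 KO Abcc3 fell by 4.13 (adjusted p = 0.0253). Lcn2, a C/EBP target, rose by 2.67 with the loss of p65 (adjusted p = 0.00361) and by 3.16 with the loss of both (adjusted p = 0.00189). Abcg8 fell by 0.75 and Abcg5 by 0.66 in DKO (adjusted p = 0.0168 and 0.0131).

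The number of hepatocyte markers called depended on the test. DESeq2 called 6 of them in p65 KO and 5 in DKO, and edgeR with scaling to equal totals called 4 in p65 KO. With TMM, of the 14 hepatocyte markers 2 (14.3%, beside 14.9% of all genes) were called in p65 KO, Serpina1e (-0.88, adjusted p = 0.0317, a member of a cluster of near copies, which makes its counts uncertain) and Cps1 (0.56, adjusted p = 0.0479), and those called in DKO included Ass1 (0.96) and Cps1 (0.72), both higher, while in Nrf2 KO edgeR called 0, with 4 at an unadjusted p under 0.05 and 2 called by DESeq2. Of 20 fetal and progenitor genes 19 were in the table and 9 passed the filter. In p65 KO 1 was called and in DKO 1, both higher, with 1 and 2 by DESeq2. Each is 11.1% of the genes tested in this list, beside 14.9% of all genes in p65 KO and 5.45% in DKO. In Nrf2 KO edgeR called 0, with 2 at an unadjusted p under 0.05 and 1 called by DESeq2. The summed level of the fetal and progenitor genes was 323 to 451 normalized counts in control, 201 to 258 in Nrf2 KO, 458 to 600 in p65 KO and 366 to 471 in DKO.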

How the data were processed

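Hepatocyte RNA from 10 mice (control, n = 3; Nrf2 KO, n = 2; p65 KO, n = 2; DKO, n = 3) was examined, with groups taken from the labels. The authors prepared stranded TruSeq libraries, quantified reads with Salmon 1.10.3 against GRCm39 and GENCODE M33 with a stranded setting, and deposited 1 rounded estimated count for each gene and mouse. The table is named as normalized, but totals and size factors differ between libraries, so the values were tested as estimated counts. The step from transcripts to genes is not given in the sources used here. All columns of the table were assigned to mice by name.

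The counts were tested with edgeR 4.0.16 (quasi-likelihood, TMM, genes with at least 10 counts in all) in R 4.3.3 on the whole table, with 1 model of the 4 genotypes and Benjamini-Hochberg adjustment over the 13641 genes tested. A gene was called at an adjusted p of at most 0.05, without the further log2 fold change of 1 that the study used, unless stated. Alternatives were DESeq2 1.42.0, limma 3.58.1 on log2(normalized count + 1), other scalings and filters, only the 2 genotypes compared, a replicate block, and leaving out each library. The edgeR step was tested on simulated data. Totals ranged from 33707165 to 49897382, and intervals are 95% intervals. Gene names matched for 21926 of 21939 identifiers in GENCODE M39. Promoters were read from GRCm39. Named genes are the 9 factors, the targeted genes, up to 3 called genes with the largest change per list and comparison with control (mean of at least 50 normalized counts), and the 3 genes nearest in pattern to each factor that varied across genotypes. Genes at 0 or under 10 counts in marker lists, and the neighbours of Foxa1 and Foxa2, were named after their values were seen. The 9 factors and all lists were chosen with earlier results of these data known. Protein sequences were not used here. A called hepatocyte marker is not reported here by name.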

Additional observations from a re-analysis of the deposited data

Results flagged for a closer look

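Foxa3 was singled out because the effect of losing Nrf2 differed with the p65 state by a test of that difference itself. The interaction was -1.25 on the log2 scale (standard error 0.199, adjusted p = 0.0294 in edgeR's quasi-likelihood test over all genes tested). Both Nrf2 KO libraries (2749 and 2848 normalized counts) lay above the 3 control libraries (2153 to 2236), and all 3 DKO libraries (1958 to 2831) lay below both p65 KO libraries (4136 and 4736). The call was lost without any 1 of the control, Nrf2 KO and p65 KO libraries, with adjusted p up to 0.129.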

How the results depend on the processing

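With 2 or 3 mice per genotype, each call rests on few libraries and the precision is limited by the number of mice, not by depth. The 8 called values (4 in p65 KO, 3 in DKO against p65 KO and the interaction of Foxa3) kept their direction under every alternative run. Leaving out 1 library gave 28 of 80 values past the threshold no longer, and the other alternatives 5 of 71. Leaving out each library in turn gave 0 to 1 factors called in Nrf2 KO, 1 to 4 in p65 KO (Foxa3 in all 10 cases), 0 to 2 in DKO, 0 to 3 in DKO against p65 KO, 0 to 1 in DKO against Nrf2 KO, 0 to 1 for the interaction and 1 to 6 across the genotypes. The Cebpb to Cebpa difference ranged from -1.01 to -0.84 in Nrf2 KO, from -0.80 to -0.71 in p65 KO and from -0.23 to 0.18 in DKO. In Nrf2 KO 1 factor (Cebpb) was called with no filter, with DESeq2 and with only the 2 genotypes in the fit, and DESeq2 called 1 (Cebpb) in DKO against Nrf2 KO. With only the 2 genotypes in the fit 1 factor (Onecut1) was called in DKO against p65 KO. Scaling to equal totals gave 2 for the interaction (Foxa3 and Cebpa). The cause of these changes was not tested.

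Deviations of libraries with the same replicate number correlated between -0.236 and 0.103 over 13 pairs, 2 of them over 0.1. These 2 are the same value, because the deviations of a genotype with 2 libraries mirror each other, so the pairs are not independent. The numbers were not taken as pairing mice. With the replicate block 0 factors were called for the interaction (Foxa3, adjusted p = 0.0831), 2 across the genotypes (Hnf4a and Foxa3), 2 in DKO against p65 KO, 4 in p65 KO and 0 in the other comparisons, and the Cebpb to Cebpa differences were -0.97, -0.80 and -0.0082.

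Values that changed sign were all below the threshold. With scaling to equal totals these were Cebpb (0.12) and Onecut1 (0.071) in p65 KO, Hnf4a in DKO against Nrf2 KO (-0.064), and the interactions of Foxa1 (-0.072) and Foxa2 (-0.16). Limma gave 0.30 for Onecut1 in p65 KO. Nr5a2 in DKO was 0.035 with upper quartile scaling, 0.0014 with DESeq2 size factors and with DESeq2, and 0.0077 with a filter on a mean of 10 counts. With the replicate block Hnf4a (-0.012) and Onecut1 (0.40) in DKO against Nrf2 KO and the interaction of Onecut1 (0.65) changed sign. The alternatives for DKO against the single knockouts and for the interaction of single genes were chosen after seeing the data. Leaving out 1 library turned the sign of 30 of 460 such values. The ranges were, in Nrf2 KO, -0.87 to 0.077 for Foxa2, -0.16 to 0.25 for Cebpa and -0.11 to 0.39 for Prox1. In p65 KO they were -0.13 to 0.041 for Cebpb, -0.54 to 0.67 for Onecut1 and -0.049 to 0.49 for Nr5a2. In DKO they were -0.039 to 0.23 for Foxa3, -0.25 to 0.075 for Cebpa, -0.22 to 0.056 for Cebpb and -0.080 to 0.083 for Nr5a2. Against p65 KO, DKO gave -0.16 to 0.12 for Cebpb and -0.49 to 0.046 for Nr5a2, and against Nrf2 KO -0.035 to 0.097 for Hnf4a, -0.83 to 0.099 for Foxa2, -0.33 to 0.074 for Cebpa and -0.94 to 0.92 for Onecut1. The interactions ranged from -0.29 to 0.51 for Foxa1, from -0.33 to 0.62 for Foxa2 and from -0.97 to 0.99 for Onecut1.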
